A study of Mus musculus with 12 samples.

Results

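The 9 genes described here are the adult globins and the regulators, receptors and haem enzyme that accompany them in red cell formation: Gata1, Klf1, Epor, Tfrc, Alas2, Hba-a1, Hba-a2, Hbb-bt and Hbb-bs. They were taken by symbol from a table of 31060 genes, and all 9 passed the filter on low counts that left 15630 genes for testing. RNA-seq counts per gene were measured in lineage-negative bone marrow cells of C57BL/6 mice in 11 libraries. This fraction is marrow depleted of cells that carry surface markers of mature blood lineages, and the labels do not list the markers used.

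The libraries came from 4 genotypes: Tet2+/-;Ins2Akita/+ (labelled as carrying both alleles and called double mutant here, n = 3), Tet2+/- (n = 3), Ins2Akita/+ (n = 2) and WT (n = 3). Tet2 codes for a dioxygenase that acts on methylated cytosine in DNA, and the dominant Akita allele of the insulin gene Ins2 gives high blood glucose in mice. The labels give no age, do not say how the Tet2 allele was made and leave unsaid whether the libraries of a genotype are from different mice. The p-values therefore reflect only how much these libraries varied. Tet2 had 66.5, 108 and 34.2 CPM (counts scaled to library size with TMM factors) in double mutant libraries 1, 2 and 3, against 19.0, 18.5 and 19.3 CPM in Tet2+/-, 131 and 107 CPM in Ins2Akita/+ and 91.2, 128 and 45.1 CPM in WT. The libraries labelled double mutant thus lay above all Tet2+/- libraries in Tet2. They overlapped WT, though within each number the double mutant was below WT. Tet2+/- was at 0.215 of the WT level in the edgeR fit described below. This gene thus does not bear out a Tet2+/- label shared by both genotypes. Every statement on Tet2+/- and on the double mutant is about the libraries labelled so.

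Red cell precursors arise in the marrow from progenitors that switch on the transcription factor GATA1 and then KLF1. Erythropoietin, bound by its receptor EPOR, keeps these cells alive, the transferrin receptor TFRC brings in iron, and ALAS2 makes the first intermediate of haem. Haemoglobin joins haem to alpha globin chains, from Hba-a1 and Hba-a2, and beta globin chains, which in C57BL/6 mice come from Hbb-bs and Hbb-bt. KLF1 is known for binding CACCC boxes in the promoter of adult beta globin, and GATA1 for binding sites with the core GATA in many erythroid genes, the globins among them. The globins are made mainly late, in haemoglobinising cells, whereas Gata1, Klf1, Epor and Tfrc are already expressed in earlier erythroid progenitors.

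The upstream sequences of 6 members are shown because the factors and their targets meet there. Each is read 5′ to 3′ on the gene's strand from RefSeq (build GRCm38.p6) and lies 220 to 51 bases before the RefSeq start, shortened for Hba-a1 and Hbb-bs so that no gene shows over 30 bases of an untranslated region annotated in GENCODE M21. Capitals mark GATA words (GATA with A or T before it and A or G after it) and the CACCC word CCACACCC, searched on both strands.
Hba-a1, 220 to 132 bases before the start, chr11:32283452-32283540, plus strand: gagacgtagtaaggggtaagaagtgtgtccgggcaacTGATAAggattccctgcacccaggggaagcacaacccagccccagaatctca
Hba-a2, 220 to 51 bases before the start, chr11:32296272-32296441, plus strand: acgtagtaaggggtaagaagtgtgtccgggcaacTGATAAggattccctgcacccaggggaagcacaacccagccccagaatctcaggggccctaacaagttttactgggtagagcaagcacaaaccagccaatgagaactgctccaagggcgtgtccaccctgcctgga
Hbb-bs, 220 to 169 bases before the start, chr7:103828097-103828148, minus strand: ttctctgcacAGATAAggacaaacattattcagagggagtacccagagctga
Hbb-bs, 113 to 51 bases before the start, chr7:103827979-103828041, minus strand: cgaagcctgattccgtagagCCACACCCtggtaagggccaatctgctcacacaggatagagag
Hbb-bt, 220 to 51 bases before the start, chr7:103813974-103814143, minus strand: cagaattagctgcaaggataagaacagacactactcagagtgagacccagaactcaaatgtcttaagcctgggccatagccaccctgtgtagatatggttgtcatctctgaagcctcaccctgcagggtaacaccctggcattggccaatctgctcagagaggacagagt
Alas2, 220 to 51 bases before the start, chrX:150547197-150547366, plus strand: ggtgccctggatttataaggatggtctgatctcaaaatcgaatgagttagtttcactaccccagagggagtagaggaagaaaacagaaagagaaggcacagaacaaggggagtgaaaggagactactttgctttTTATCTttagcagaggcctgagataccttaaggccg
Klf1, 220 to 51 bases before the start, chr8:84901762-84901931, plus strand: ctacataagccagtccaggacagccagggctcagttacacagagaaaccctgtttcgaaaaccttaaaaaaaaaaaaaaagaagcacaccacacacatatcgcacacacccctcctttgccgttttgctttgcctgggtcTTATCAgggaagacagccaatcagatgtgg

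The GATA word of Hba-a1 starts 183 bases before the start, that of Hbb-bs 210, that of Alas2 86 and that of Klf1 80, the last 2 on the other strand. Over the full RefSeq windows, 250 bases before to 50 after the start, a GATA word was found in 6 of 9 members, Klf1, Epor, Alas2, Hba-a1, Hba-a2 and Hbb-bs, and in 29.8% of 32851 mouse promoter windows. CCACACCC was found in 1 of 9, Hbb-bs, where it starts 93 bases before the start, and in 3.56% of all windows. The word CCAAT was present in 6 of 9 members (Klf1, Tfrc, Hba-a1, Hba-a2, Hbb-bt and Hbb-bs) and in 37.4% of all windows. In GENCODE M21 (GRCm38) all 9 genes are protein coding: Hba-a1 at chr11:32283511-32284465 and Hba-a2 at chr11:32296489-32297298 on the plus strand, Hbb-bt at chr7:103812524-103813996 and Hbb-bs at chr7:103826534-103828096 on the minus strand, with Gata1 at chrX:7959260-7978071 (minus), Klf1 at chr8:84901928-84905291 (plus), Epor at chr9:21958897-21963506 (minus), Tfrc at chr16:32608920-32632794 (plus) and Alas2 at chrX:150547375-150570638 (plus). The windows of Hba-a1 and Hba-a2 were identical over all 297 aligned bases. Those of Hbb-bs and Hbb-bt matched at 75.6% of 287 aligned bases. A match describes letters in the window and is not evidence of binding, and a missing word says only that these letters are not in it.

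Total counts were 14814409 to 22600405 per library, so 3 counts, taken as the limit of detection, correspond to 0.133 to 0.203 CPM before TMM scaling. The libraries numbered 3 (double mutant, Tet2+/- and WT; no Ins2Akita/+ library used here has that number) stood apart from numbers 1 and 2. Mitochondrially encoded genes took 3.43% to 9.76% of counts in these 3 libraries and 1.36% to 1.94% in the 8 others. Neutrophil granule genes, 12 of 12 listed markers detected, summed to 3393 CPM in Tet2+/- library 3 and 3451 CPM in WT library 3, against 30836 to 35417 CPM in libraries 1 and 2 of those genotypes. They summed to 65981 CPM in double mutant library 3, between 56329 and 81179 CPM in double mutant libraries 1 and 2, and to 41051 and 24107 CPM in Ins2Akita/+. The part of cell composition in the results below was not tested, and in these bulk samples fewer cells of a type cannot be told apart from less RNA per cell.

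Compared per kilobase of exon, the globins were the most abundant members in the median library. The median levels were 253 CPM per kb for Hbb-bs, 193 for Hba-a1, 148 for Hbb-bt and 74.6 for Hba-a2. Tfrc followed with 49.9, Klf1 with 41.2, Alas2 with 23.2, Gata1 with 15.5 and Epor with 13.3 CPM per kb. Even so, the 4 globins together took 0.0122% to 0.102% of all counts. No member was near the detection limit: the lowest count of any member was 120, for Epor in double mutant library 2.

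**Figure D1:**
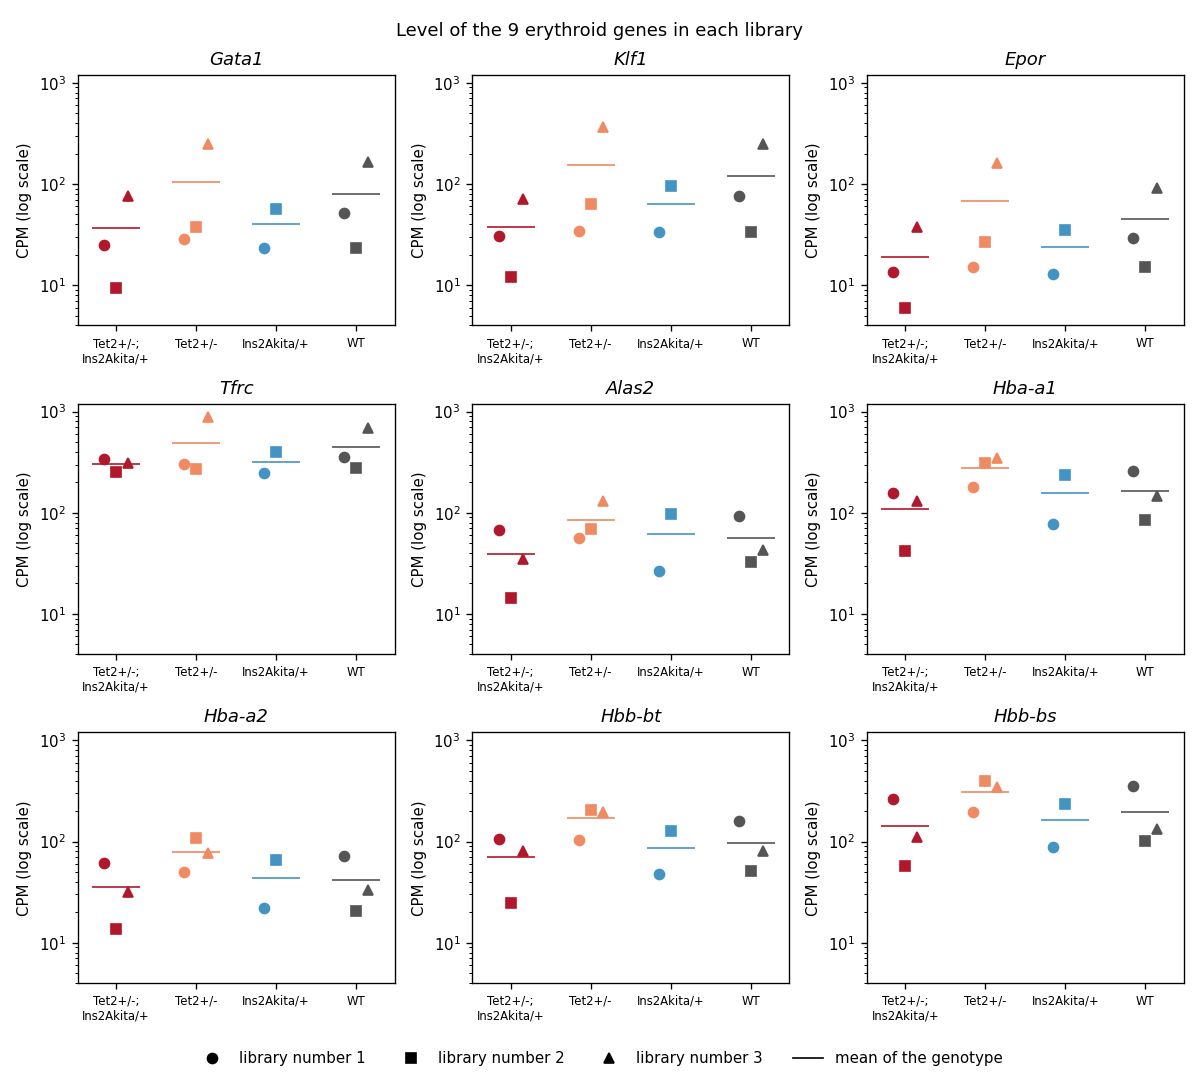
Level of each of the 9 genes in CPM (log scale) in every library, by genotype; circles, squares and triangles are libraries 1, 2 and 3 and the line is the genotype's mean. For Gata1, Klf1 and Epor the triangle lies above the circle and the square in each genotype that has all 3, whereas for the globins it mostly lies between them.

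Gata1, the zinc finger factor at the head of the erythroid programme, ranged 26.6-fold over the libraries. It stood at 24.9, 9.35 and 76.8 CPM in double mutant libraries 1, 2 and 3, at 28.7, 37.8 and 248.6 CPM in Tet2+/-, at 23.5 and 57.0 CPM in Ins2Akita/+ and at 52.0, 23.4 and 166 CPM in WT. The highest value in each of the 3 genotypes with 3 libraries belonged to library 3, and all genotypes overlapped. The means were 37.0 ± 35.3 CPM in the double mutant (SD, n = 3), 105 ± 124 CPM in Tet2+/- (n = 3), 40.3 ± 23.8 CPM in Ins2Akita/+ (n = 2) and 80.3 ± 75.2 CPM in WT (n = 3).

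Klf1, the factor that drives adult beta globin and many genes of the red cell membrane, had the widest range of the members, 30.2-fold. It had 30.6, 12.1 and 71.1 CPM in the double mutant libraries, 34.2, 63.0 and 366 CPM in Tet2+/-, 33.2 and 94.7 CPM in Ins2Akita/+ and 75.8, 33.7 and 250.3 CPM in WT. Library 3 was again the highest of its genotype, and the double mutant value in library 3 was below WT library 1. Gata1 and Klf1 kept close to a fixed proportion, with 0.600 to 1.08 CPM of Gata1 per CPM of Klf1. That ratio was highest in double mutant library 3. The same library had the highest summed levels of megakaryocyte and platelet markers (542 CPM) and of mast cell and basophil markers (5642 CPM). In double mutant libraries 1 and 2 these sums were 229 and 182 CPM, and 876 and 1336 CPM. The part of such cells in the level of Gata1 was not tested.

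Epor, the receptor through which erythropoietin signals, followed Gata1 closely. Its values were 13.4, 5.97 and 37.3 CPM in the double mutant libraries, 15.2, 26.5 and 161 CPM in Tet2+/-, 12.9 and 35.1 CPM in Ins2Akita/+ and 29.5, 15.1 and 91.5 CPM in WT. The ratio of Epor to Gata1 stayed within 0.485 to 0.700 in all 11 libraries. Tfrc, which takes up transferrin-bound iron in all dividing cells and most strongly in red cell precursors, varied least, by 3.58-fold. It had 340.0, 255 and 308 CPM in the double mutant libraries, 307, 271 and 886 CPM in Tet2+/-, 247 and 394 CPM in Ins2Akita/+ and 358, 279 and 690.2 CPM in WT. Outside Tet2+/- library 3 and WT library 3, all Tfrc values lay between 247 and 394 CPM.

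Alas2, the X-linked enzyme that starts haem synthesis in red cell precursors, behaved more like the globins. It had 68.3, 14.4 and 34.7 CPM in the double mutant libraries, 55.7, 68.7 and 129.9 CPM in Tet2+/-, 26.9 and 96.2 CPM in Ins2Akita/+ and 92.8, 32.7 and 43.1 CPM in WT. Library 3 was the highest in Tet2+/- alone and lay between libraries 1 and 2 in the double mutant and in WT.

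Of the alpha globins, Hba-a1 had 156, 42.1 and 130.0 CPM in the double mutant libraries, 180.3, 309 and 350.5 CPM in Tet2+/-, 77.8 and 236 CPM in Ins2Akita/+ and 260.4, 84.5 and 148 CPM in WT. All 3 Tet2+/- libraries lay above all 3 double mutant libraries. Hba-a1 was the single member for which those genotypes did not overlap, against 15.2% of all genes tested. Hba-a2, the second alpha gene, had 61.8, 13.8 and 31.9 CPM in the double mutant libraries, 49.8, 109 and 76.5 CPM in Tet2+/-, 22.1 and 65.1 CPM in Ins2Akita/+ and 72.1, 20.6 and 33.5 CPM in WT. The transcripts compared, 1 of each gene, were identical at 537 of 538 aligned bases, so how reads were divided between Hba-a1 and Hba-a2 is uncertain. How the counting treated reads that match both genes is not given, so their sum and the alpha globin share are uncertain too.

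Of the beta globins, Hbb-bs had 261, 56.9 and 112 CPM in the double mutant libraries, 195, 397 and 345 CPM in Tet2+/-, 88.3 and 235 CPM in Ins2Akita/+ and 355, 102 and 134 CPM in WT. Hbb-bt had 106, 24.5 and 81.3 CPM in the double mutant libraries, 104, 207 and 196 CPM in Tet2+/-, 47.3 and 127 CPM in Ins2Akita/+ and 158, 50.9 and 80.8 CPM in WT. Both genes were highest in Tet2+/- library 2 and lowest in double mutant library 2. Their transcripts matched at 93.3% of 616 aligned bases, which leaves room for some reads to be assigned to the wrong one.

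Across all 9 genes the mean was highest in Tet2+/- and lowest in the double mutant, with Ins2Akita/+ and WT between them. For Hbb-bs the means were 143 ± 105.5 CPM in the double mutant, 312 ± 105 CPM in Tet2+/-, 162 ± 104 CPM in Ins2Akita/+ and 197 ± 138 CPM in WT (SD, n = 3, 3, 2 and 3). For Klf1 they were 38.0 ± 30.2, 154 ± 184, 64.0 ± 43.5 and 119.9 ± 115 CPM in that order of genotypes. Neighbouring genotypes in the order of the means overlapped in their libraries for every member. The order also rests on few libraries: within number 1, every member was lower in Tet2+/- than in WT.

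**Figure D2:**
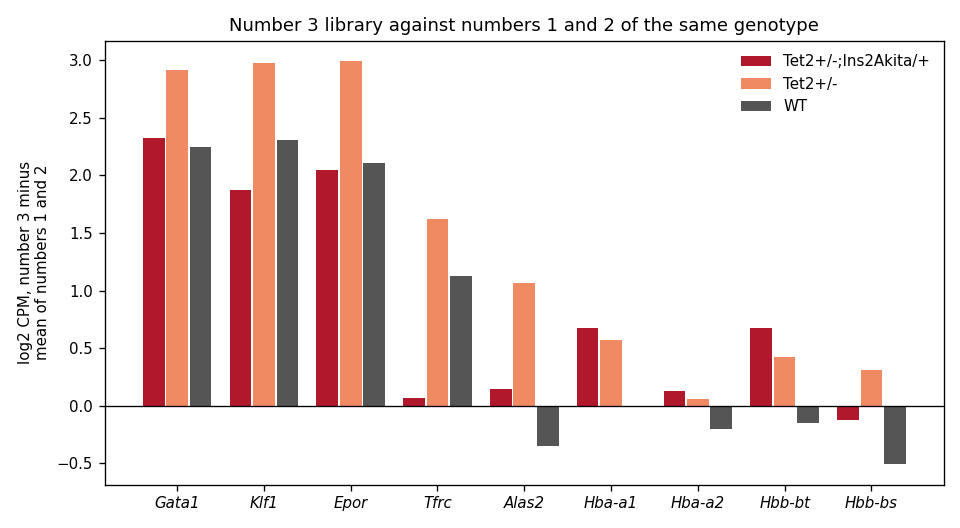
Library 3 minus the mean of libraries 1 and 2 of the same genotype, in log2 CPM, for the 9 genes; bars are the double mutant, Tet2+/- and WT. Gata1, Klf1 and Epor stood at 1.88 to 2.996 in all 3 genotypes, and the 4 globins at -0.51 to 0.68.

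Reading the libraries numbered 3 apart separated the members. In log2 CPM relative to the mean of libraries 1 and 2, Gata1 was at 2.32 in double mutant library 3, at 2.91 in Tet2+/- library 3 and at 2.24 in WT library 3. Klf1 was at 1.88, 2.98 and 2.31 in the same order, and Epor at 2.04, 2.996 and 2.11. All 9 of these values lay above the 95th percentile of the genes tested in their genotype, which was 1.57 in the double mutant, 1.84 in Tet2+/- and 1.48 in WT.

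Tfrc was at 0.07 in the double mutant, 1.62 in Tet2+/- and 1.13 in WT, and Alas2 at 0.14, 1.07 and -0.35. The globins lay between -0.51 (Hbb-bs in WT) and 0.68 (Hba-a1 in the double mutant), with a median over the 4 genes of 0.40 in the double mutant, 0.37 in Tet2+/- and -0.18 in WT. The median of all genes tested was 0.01 to 0.02. In 11 of the 12 pairings of globin and genotype library 3 lay between libraries 1 and 2; Hba-a1 in Tet2+/- was above both. These differences are a description with no test, since number 3 was singled out with the data known, and there is 1 such library per genotype.

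The proportion of beta globin to Klf1 restates this split as a ratio, since it is computed from the same values. Hbb-bs amounted to 8.52, 4.69 and 1.57 CPM per CPM of Klf1 in double mutant libraries 1, 2 and 3, to 5.70, 6.29 and 0.944 in Tet2+/-, to 2.66 and 2.48 in Ins2Akita/+ and to 4.69, 3.03 and 0.534 in WT. All 3 libraries numbered 3 lay below the 8 others, whose lowest value was 2.48. For Hba-a1 the ratio to Klf1 was 0.592 to 1.83 in libraries numbered 3 and 2.34 to 5.28 elsewhere, and for Alas2 it was 0.172 to 0.488 and 0.807 to 2.23. Within each number the ratio of Hbb-bs to Klf1 was higher in the double mutant than in WT.

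**Figure D3:**
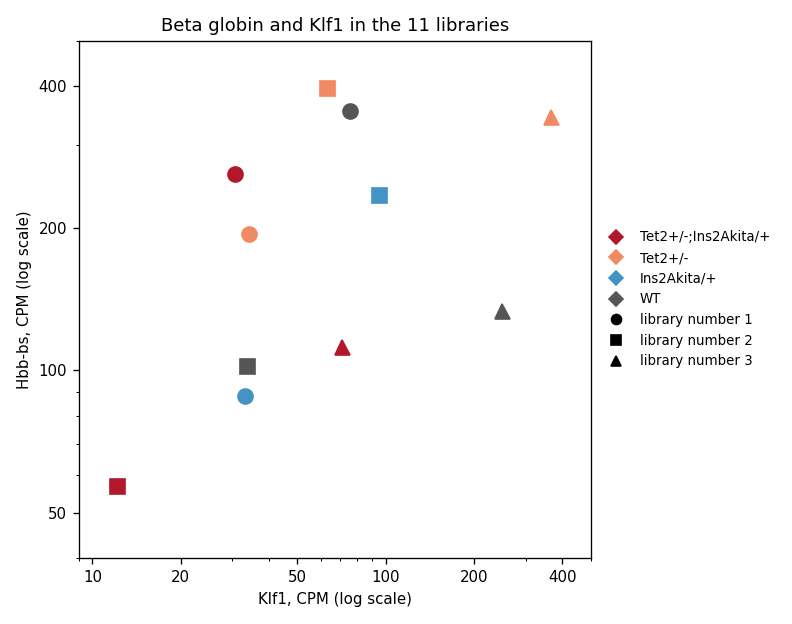
Hbb-bs against Klf1, both in CPM on log scales, in the 11 libraries; colours are genotypes and shapes are library numbers. The 3 triangles, libraries numbered 3, had less Hbb-bs for their level of Klf1 than the others. They had 0.534 to 1.57 CPM of Hbb-bs per CPM of Klf1, against 2.48 to 8.52 in the other libraries.

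Within the 8 libraries numbered 1 and 2 the members varied together, while over all 11 the globins and Alas2 went less closely with Gata1, Klf1, Epor and Tfrc. Pearson's r of log2 CPM had a median of 0.986 over the 6 globin pairs, 0.939 over the 4 pairs of Alas2 with a globin, 0.889 over the 4 pairs of Alas2 with Gata1, Klf1, Epor or Tfrc, 0.853 over the 6 pairs among those 4 genes and 0.813 over the 16 pairs of a globin with 1 of them. Over all 11 libraries the medians in the same order of classes were 0.972, 0.938, 0.637, 0.940 and 0.518, the last with a lowest value of 0.359. These values describe libraries that share depth and cell composition across genes, and they carry no p-value. Over all 11 libraries, the non-member genes of at least 10 CPM that most resembled the mean profile of Gata1, Klf1, Epor, Tfrc and Alas2 were Smim1 (r = 0.998), Kel, Cpox, Car2, Tspan33 and Hebp1 (r = 0.992). Smim1 encodes the Vel blood group protein, Kel a blood group glycoprotein and Cpox an enzyme of haem synthesis. The mean globin profile was most like that of Serpinb6b (r = 0.908), Acp5, Slc4a1 (r = 0.838), Bpgm, Apol8 and Slc6a9 (r = 0.828), out of 8998 genes ranked. Slc4a1 encodes band 3, the anion exchanger of the red cell membrane, and Bpgm makes the compound that lowers the oxygen affinity of haemoglobin. All 6 genes of the first profile had the highest value of the double mutant, of Tet2+/- and of WT in library 3. They were chosen for likeness over these same libraries, so this follows largely from the choice and is no separate observation. Car2, carbonic anhydrase 2, had 376, 133 and 802 CPM in the double mutant libraries, 405, 663 and 3256 CPM in Tet2+/-, 346 and 869 CPM in Ins2Akita/+ and 680.0, 343 and 1967 CPM in WT.

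The makeup of the globin counts also differed between libraries. Alpha globin was 37.3% of the 4 globins' counts in double mutant library 1 (95% exact binomial interval 36.4 to 38.2), 40.8% in library 2 (38.9 to 42.6) and 45.6% in library 3 (44.3 to 46.9). The shares were 43.5%, 40.9% and 44.1% in the Tet2+/- libraries, 42.4% and 45.4% in Ins2Akita/+ and 39.3%, 40.7% and 45.9% in WT. Library 3 had the highest alpha share in each genotype that has all 3, though in Tet2+/- its interval (43.4 to 44.8) overlapped that of library 1 (42.6 to 44.4).

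Hbb-bs made up 71.1%, 69.9% and 57.9% of beta globin counts in the double mutant libraries, 65.1%, 65.7% and 63.7% in Tet2+/-, 65.1% and 65.0% in Ins2Akita/+ and 69.2%, 66.7% and 62.3% in WT. The 3 libraries numbered 3 had the lowest shares of the 11, from 57.9% (56.2 to 59.7) in the double mutant to 63.7% (62.8 to 64.6) in Tet2+/-, where the interval again overlapped that of library 1 (63.9 to 66.3). Hba-a1 took 71.7% to 82.1% of alpha globin counts, with the likeness of the gene pair noted above. The intervals cover counting error only, since reads without molecular identifiers are not independent molecules.

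**Figure D4:**
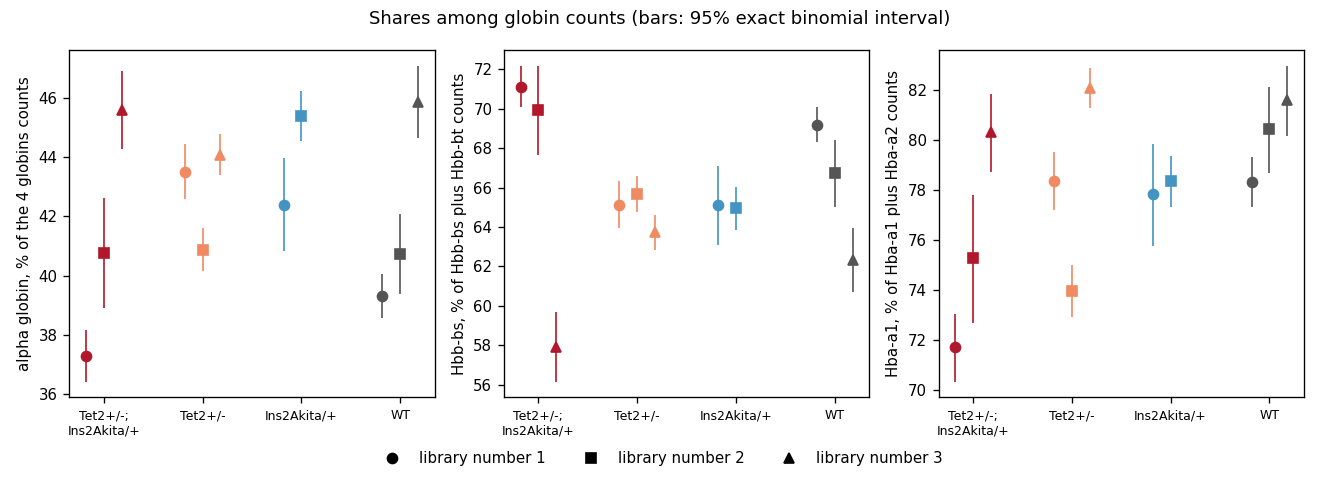
Shares among globin counts in every library: alpha globin among all 4 globins, Hbb-bs among beta globin and Hba-a1 among alpha globin, each in percent with its 95% exact binomial interval (the axes do not start at 0). Libraries numbered 3 (triangles) had the lowest Hbb-bs shares, from 57.9% to 63.7%, against 65.0% to 71.1% in the others.

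The comparison of the double mutant with WT asks what both alleles together do to these genes. All 9 log2 differences were below 0, with a median of -0.56, against -0.05 over all genes tested, and Gata1, Klf1 and Epor lay further below 0 than the globins. None of the 9 members passed edgeR's quasi-likelihood test at a Benjamini-Hochberg adjusted p under 0.05, a threshold that 0.0448% of all genes passed. Klf1 was at -1.66 ± 1.03 (log2, SE; adjusted p = 0.763), Epor at -1.27 ± 1.01 (adjusted p = 0.830), Gata1 at -1.12 ± 1.04 (adjusted p = 0.858), Hba-a1 at -0.59 ± 0.59 (adjusted p = 0.872) and Hbb-bs at -0.46 ± 0.64 (adjusted p = 0.917), by edgeR. The unadjusted p was under 0.05 for 0 of 9 members and for 8.79% of all genes. DESeq2, which called 2.61% of genes, and limma voom, which called 0.0832%, also called 0 of 9.

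Compared within each library number, 8 of 9 members were lower in the double mutant in all 3 numbers, as were 25.7% of all genes tested. Klf1 was at 0.404, 0.361 and 0.284 of its WT level in numbers 1, 2 and 3, Gata1 at 0.479, 0.400 and 0.464, and Hbb-bs at 0.734, 0.557 and 0.837. The exception was Hbb-bt, at 0.670 and 0.481 in numbers 1 and 2 and 1.01 in number 3. Groups overlapped for all 9 members, whereas they did not overlap for 18.1% of genes. With the library number as a replicate block, which called 1.63% of genes and 0 of 9 members, Klf1 was at -1.49 ± 0.54 (edgeR, adjusted p = 0.185). In that fit 3 of 9 members, Klf1, Epor and Gata1, had an unadjusted p under 0.05, as had 18.9% of genes. Without the libraries numbered 3, which called 3.44% of genes and 0 of 9 members, Klf1 was at -1.36 ± 0.67 (edgeR, adjusted p = 0.324) and Tfrc at -0.10, against -0.56 with all libraries. Leaving out WT library 3 alone brought Klf1 to -0.52 and Gata1 to -0.02, and leaving out WT library 1 put Hbb-bs at 0.30.

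**Figure D5:**
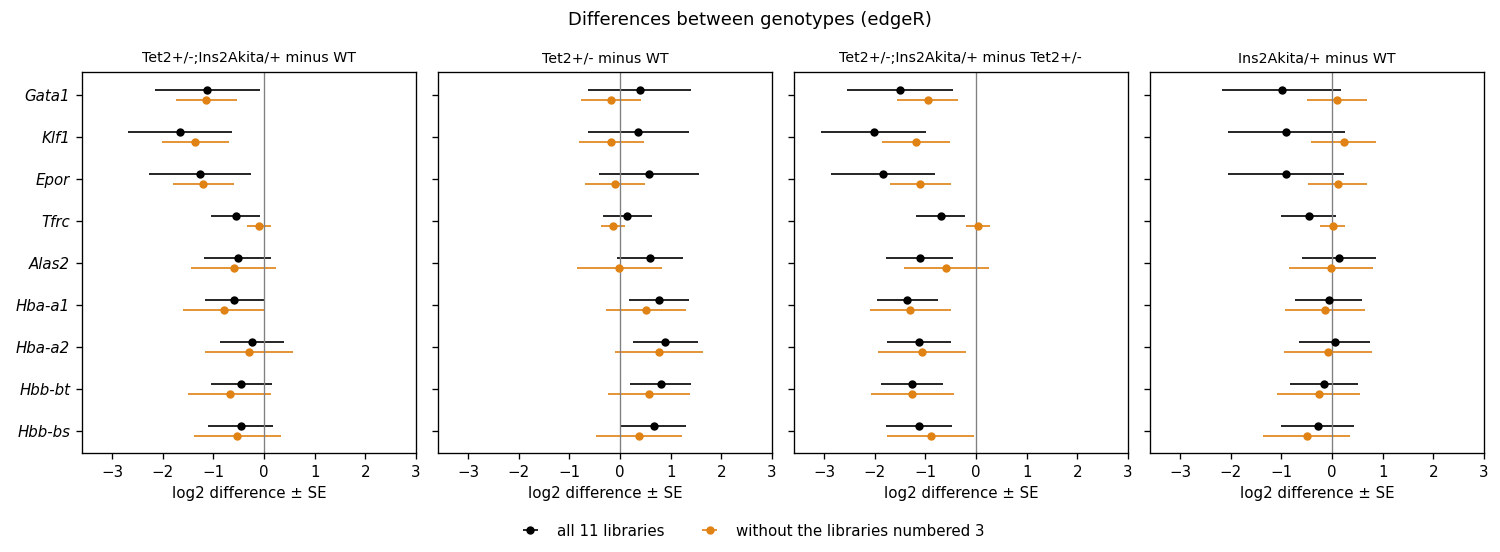
Log2 difference ± SE of each gene from edgeR without a replicate block in 4 comparisons, with all 11 libraries (black) and without those numbered 3 (orange). No value passed an adjusted p of 0.05; against WT the double mutant values are all below 0, and the Tet2+/- values for Gata1, Klf1, Epor, Tfrc and Alas2 change sign without the libraries numbered 3.

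Tet2+/- against WT asks for the effect of the Tet2 allele alone, as labelled. All 9 members were above 0, with a median log2 difference of 0.59 against 0.03 over all genes, and the largest values belonged to the globins. Again 0 of 9 passed edgeR's test, against 0.0256% of genes, and the adjusted p was 0.9999 for every member. Hba-a2 was at 0.90 ± 0.64, Hbb-bt at 0.81 ± 0.60, Hba-a1 at 0.77 ± 0.59 and Hbb-bs at 0.66 ± 0.65 (log2, SE), while Klf1 was at 0.36 ± 1.01. The unadjusted p was under 0.05 for 0 of 9 members and for 2.12% of genes, and 0 of 9 were called by DESeq2 (0.288% of genes), by limma voom (0.0256%) or with the replicate block (0.0512% of genes). The block brought Klf1 to 0.12 ± 0.54 and Gata1 to 0.13 ± 0.47, with all 9 still above 0.

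The direction depended on the libraries. Without those numbered 3 (0 of 9 called, 0.146% of genes) 4 members were above 0, the globins, and 5 below, with a median of -0.01. Leaving out Tet2+/- library 3 alone put Klf1 at -1.31, and leaving out WT library 3 alone put it at 1.47. Within numbers, Hbb-bs was at 0.548 of its WT level in number 1, at 3.89 times that level in number 2 and at 2.58 times in number 3. No member was higher in all 3 numbers, as 12.4% of genes were, and groups overlapped for all 9, against 4.24% of genes without overlap.

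Ins2Akita/+ against WT asks for the effect of the Akita allele alone, with 2 libraries against 3. Here 2 members were above 0 and 7 below, with a median log2 difference of -0.29 against -0.01 over all genes. The direction turned with the fit: with the replicate block 7 were above 0 and 2 below (median 0.15), and without the libraries numbered 3 there were 4 above and 5 below (median -0.02). By edgeR 0 of 9 passed, with an adjusted p of 1 for every member and unadjusted p from 0.418 to 0.941. The share of all genes that passed was 0%, and it was 0% as well without the libraries numbered 3, with the replicate block and by DESeq2. Same-numbered libraries of these genotypes did not deviate together across genes (r = 0.0661 and -0.351). The block and the comparisons within numbers here thus join libraries that share only a number. Within numbers the members lay on opposite sides of WT. All 9 were lower than WT in number 1, with Hbb-bs at 0.249 and Klf1 at 0.439 of the WT level, and all 9 were higher in number 2, with Hbb-bs at 2.30 times and Klf1 at 2.81 times that level. Groups overlapped for all 9 members and failed to overlap for 11.6% of genes.

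The double mutant against Tet2+/- asks for the effect of the Akita allele beside the Tet2 allele, as labelled. All 9 members were below 0 and the median, -1.26 against -0.08 over all genes, was the furthest from 0 of the 5 pairwise comparisons. None of the 9 passed edgeR's test, against 0.262% of genes. Hba-a1 was at -1.35 ± 0.60 (edgeR, adjusted p = 0.453). In this fit without a block it was the 1 member whose unadjusted p was under 0.05, as it was for 10.9% of all genes. With the replicate block the members under 0.05 were Gata1, Klf1 and Epor, against 25.3% of genes, and Hba-a1 was not among them. Klf1 was at -2.02 ± 1.05 (edgeR, adjusted p = 0.515) and Hbb-bs at -1.12 ± 0.65 (adjusted p = 0.556). Hba-a1 was also the 1 member of 9 without overlap, against 15.2% of genes.

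Within numbers, 4 of 9 members, Gata1, Klf1, Epor and Hba-a1, were lower in the double mutant in all 3, against 22.3% of genes. In number 1 the genotypes were nearer each other, with Klf1 at 0.896 and Hbb-bs at 1.34 times the Tet2+/- level, and in number 2 far apart, with Klf1 at 0.193 and Hbb-bs at 0.144 of it. DESeq2 called 3.44% of genes, limma voom 0.205%, the replicate block 4.50% and the fit without the libraries numbered 3 called 7.71%, and each of them called 0 of 9 members. The lowest adjusted p of any member in any comparison or setting was 0.121, for Epor here with the replicate block (-1.47 ± 0.50, edgeR). Leaving out Tet2+/- library 3 brought Klf1 to -0.36 and Gata1 to 0.16.

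The double mutant against Ins2Akita/+ asks for the Tet2 allele beside the Akita allele, again as labelled. All 9 were below 0, with a median of -0.30 against 0.01 over all genes, and 0 of 9 passed by edgeR (0.0384% of genes), by DESeq2 (1.21%), by limma voom (0.0192%), with the replicate block (0.115%) or without the libraries numbered 3 (2.89%). Adjusted p by edgeR was 0.953 to 0.994, and 0 of 9 had an unadjusted p under 0.05, against 6.603% of genes. With the replicate block the median was -0.76, with Klf1 at -1.80 ± 0.63, Epor at -1.45 ± 0.57 and Gata1 at -1.42 ± 0.55, against -0.75, -0.35 and -0.12 without the block (edgeR, adjusted p = 0.254, 0.294 and 0.290 with it). These 3 had an unadjusted p under 0.05 with the block, against 14.98% of genes. Without the libraries numbered 3 the median was -0.58, and 1 member, Klf1, had an unadjusted p under 0.05, against 20.4% of genes. Same-numbered libraries of these genotypes did not deviate together, so the block here joins libraries that share only a number. Klf1 was lower in both numbers, at 0.921 and 0.128 of the Ins2Akita/+ level in numbers 1 and 2, and it was the 1 member of 9 to be so, against 34.2% of genes. Gata1 and Epor were at 1.06 and 1.04 times that level in number 1 and at 0.164 and 0.170 of it in number 2. Hbb-bs was at 2.95 times the level in number 1 and at 0.242 of it in number 2. Groups overlapped for all 9 members and not for 36.6% of genes.

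The interaction term, the double mutant minus Tet2+/- minus Ins2Akita/+ plus WT, asks whether both alleles together depart from the sum of each. It was below 0 for all 9 members, from -1.28 ± 0.88 for Hba-a1 to -0.23 ± 0.73 for Tfrc, with a median of -1.11 against -0.02 over all genes. No member passed by edgeR, as 0% of genes did (0.0464% without the libraries numbered 3, 0.0192% with the replicate block, 0.384% by DESeq2, each with 0 of 9), and 0 of 9 had an unadjusted p under 0.05, against 3.44% of genes. With the replicate block the median was -1.55, with Klf1 at -1.92 ± 0.85 and Gata1 at -1.55 ± 0.73. The 6 comparisons share libraries, so their directions are not independent of each other.

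Other genes of the pathway were read from lists chosen with earlier results of these data known. In the double mutant against WT, the 19 genes of the red cell membrane and its skeleton were all below 0, with a median log2 difference of -1.07, 0 called by edgeR and 0 with an unadjusted p under 0.05. Over all genes tested the median was -0.05, 0.0448% were called and 8.79% had an unadjusted p under 0.05. Slc4a1 was at -0.71 ± 0.58 (edgeR, adjusted p = 0.835). Of the 10 haem synthesis genes besides Alas2, 8 were below 0 (median -0.55, 0 called). Alas1, the enzyme that replaces Alas2 outside red cells, was at 0.85 ± 0.74. Of 15 red cell enzymes and maturation genes 13 were below 0 (median -0.85, 0 called), and of 16 erythroid transcription factors and cofactors 10 were (median -0.28, 0 called). Over the haem, enzyme and factor lists, 0, 0 and 1 gene had an unadjusted p under 0.05.

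Against Tet2+/-, the double mutant again had all 19 membrane genes below 0 (median -1.58), with 0 called and 2 with an unadjusted p under 0.05. Over all genes tested the median was -0.08, 0.262% were called and 10.9% had an unadjusted p under 0.05. In Tet2+/- against WT, 18 of the 19 were above 0 with all libraries (median 0.45), and 1 of 19 without those numbered 3 (median -0.18), with 0 called in either. The 11 genes of iron uptake and storage had medians of -0.24 in the double mutant against WT and 0.04 in Tet2+/- against WT, and the 12 genes of erythropoietin receptor signalling -0.13 and 0.01, with 0 called. Without the libraries numbered 3, edgeR called Nfe2 and Gata2 among the factors and Stat5a and Podxl in receptor signalling for the double mutant against WT, 1 higher and 1 lower in each list. Against Tet2+/- it called Nfe2, Gata2, Lyl1, E2f2 and Spi1 among the factors (4 higher, 1 lower), Alas1 and Hmox1 higher, and Cish and Alox15 lower. With the replicate block the same 3 genes Nfe2, Stat5a and Podxl were called for the double mutant against WT, and against Tet2+/- it had Nfe2 and Alas1 higher and Icam4, a membrane protein of red cells, lower. Of all genes, the fit without the libraries numbered 3 called 3.44% against WT and 7.71% against Tet2+/-. The replicate block called 1.63% and 4.5%.

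In library 3 against libraries 1 and 2, the membrane genes were mostly higher, with medians below Gata1 and Klf1 and above the globins. Their median was 1.48 in the double mutant (19 of 19 above 0), 2.28 in Tet2+/- (19 of 19) and 1.44 in WT (17 of 19). It lay below the 95th percentile of all genes tested in the double mutant (1.57) and WT (1.48), and above it in Tet2+/- (1.84). Aqp1, the water channel of red cells, was at 2.13, 3.01 and 2.02 in that order, and Slc4a1 at 0.28, 1.34 and -0.08, closer to the globins. Car1, carbonic anhydrase 1, was at 2.94, 3.58 and 2.74.

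Markers of other lineages differed in level in the same comparisons. In the double mutant against WT all 12 neutrophil markers were above 0 (median 1.83) and all 10 B cell markers below 0 (median -2.34), with 0 called. The B cell markers called lower there were 6 of 10 with the replicate block and 7 of 10 without the libraries numbered 3, and the neutrophil markers called higher 0 and 2 of 12. These fits called 1.63% and 3.44% of all genes. Against Tet2+/-, 5 of 10 B cell markers were called lower by edgeR (among them Vpreb1, Igll1, Ebf1 and Pax5; median of the list -3.21), against 9 of 10 with the replicate block and 9 of 10 without the libraries numbered 3. The shares of all genes called were 0.262%, 4.5% and 7.71% in that order of fits. In the same comparison all 12 neutrophil markers were above 0 (median 1.53, 0 called). Summed levels of the B cell markers were 57.8 to 78.0 CPM in the double mutant, 202.5 to 401 CPM in Tet2+/-, 194 and 207 CPM in Ins2Akita/+ and 164 to 225 CPM in WT. Basophil and mast cell markers summed to 5642 CPM in double mutant library 3, against 876 and 1336 CPM in double mutant libraries 1 and 2 and 1944 to 2973 CPM in WT. Without the libraries numbered 3, 4 of the 7 tested were called lower against WT (3.44% of all genes called) and 4 against Tet2+/- (7.71%). In that fit 3 of 10 T and NK cell markers were called lower against WT and 6 of 10 against Tet2+/-. In both lists 0 were called higher. With the replicate block the counts called lower were 0 and 0 for the first list, and 0 and 4 for the second. The part of these shifts in the erythroid values was not tested.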

How the data were processed

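The authors deposited 1 table of raw counts, whole numbers of reads for each gene with no normalization, per the file headers and values. bcl2fastq, Trimmomatic 0.32, TopHat2 2.1.1 and build GRCm38 are named in the submitters' processing notes; which counting program, annotation and strand setting were used was not given in the sources used here, so reads of overlapping or near-identical genes are uncertain. Of the identifiers, 30875 of 31060 matched a GENCODE M21 symbol without version. Number 4 of the double mutant is not analysed here, and 1 column that no label matches was left out.

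Counts of the 11 libraries were fitted together in edgeR 4.0.16 (R 4.3.3): filterByExpr, TMM factors, glmQLFit (robust=TRUE) and then glmQLFTest. P-values were adjusted by Benjamini-Hochberg over 15630 genes, with a threshold of 0.05. Standard errors were computed as the absolute log2 difference divided by the square root of F. CPM values use TMM factors, and levels per kb use the union of GENCODE M21 exons. DESeq2 1.42.0 and limma 3.58.1 (voom) were alternatives, with other scalings, no filter, each library left out, all libraries numbered 3 left out, and the replicate number as a block. The fit was also run on simulated counts in which genes changed in the double mutant only. That simulation had no libraries numbered 3 set apart and no pairing, so it says nothing on either, and its outcome is not reported here.

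Replicate numbers are those of the labels, where their meaning is not given. Deviations from genotype means of same-numbered libraries correlated across genes at 0.340 to 0.589 (double mutant and WT), 0.485 to 0.791 (Tet2+/- and WT) and 0.318 to 0.533 (double mutant and Tet2+/-), all over the limit of 0.1 set for pairing. By that limit the numbers count as pairs among these genotypes, though a number 3 that stands apart raises these values by itself. The main fit and its standard errors take no account of this pairing, since the labels do not say what a number marks. The replicate block, an alternative, does. For Klf1 in the double mutant against WT the standard error was 1.03 in the main fit and 0.54 with the block. Ins2Akita/+ gave 0.0661 and -0.351 with WT.

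The members and lists were chosen with earlier results of these data known, and no test over a list was run. Named genes are the members, Tet2, the list genes of highest mean CPM or called, and the 6 most alike genes per profile. Promoter sequences are from RefSeq (GRCm38.p6), with all 9 members matched. Ahsp was not analysed here, and some genes of the lists are not reported by name.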

Additional observations from a re-analysis of the deposited data

How the results depend on the processing

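Under 20 alternative settings (19 for the interaction) 0 of 9 members were called in each of the 6 comparisons, as with the settings reported, so no member changed its side of the threshold. This includes the replicate block, with 0 of 9 members called and adjusted p as low as 0.121 (double mutant against Tet2+/-), 0.185 (double mutant against WT) and 0.254 (double mutant against Ins2Akita/+). The replicate block moved calls over all genes from 7 to 255, 41 to 703 and 6 to 18 in the double mutant against WT, Tet2+/- and Ins2Akita/+ and from 4 to 8 in Tet2+/- against WT. DESeq2 gave 408, 538, 189 and 45, no low count filter 52, 86, 20 and 6, and leaving out the libraries numbered 3 gave 519, 1163, 436 and 22. Another scaling (RLE, upper quartile, or totals and TMM without the globins) changed no member's sign, nor did DESeq2, limma voom, the absence of a low count filter or a fit of both groups alone. Over all alternatives, 5 of 9 members kept 1 sign in the double mutant against WT, 4 in Tet2+/- against WT, 7 in the double mutant against Tet2+/-, 4 in the interaction and 0 in both pairwise comparisons with Ins2Akita/+. Changes of sign on the log2 scale, none with a call, were as follows. Without the libraries numbered 3, in Tet2+/- against WT Gata1 was at -0.18, Klf1 at -0.17, Epor at -0.10, Tfrc at -0.14 and Alas2 at -0.0117. In Ins2Akita/+ against WT Gata1 was at 0.0990, Klf1 at 0.23, Epor at 0.11, Tfrc at 0.0109, Alas2 at -0.0234 and Hba-a2 at -0.0821. In the double mutant against Tet2+/- Tfrc was at 0.0397. In the interaction Tfrc was at 0.0288. With the replicate block, in Ins2Akita/+ against WT Gata1 was at 0.28, Klf1 at 0.31, Epor at 0.22, Hba-a1 at 0.15 and Hbb-bt at 0.0328. Leaving out 1 library at a time gave the following ranges for the members that changed sign. For the double mutant against WT Alas2 spanned -1.19 to 0.0639, Hba-a2 -0.88 to 0.43, Hbb-bt -0.87 to 0.12 and Hbb-bs -1.22 to 0.30. For Tet2+/- against WT Gata1 spanned -1.28 to 1.46, Klf1 -1.31 to 1.47, Epor -1.13 to 1.57 and Tfrc -0.62 to 0.60. For Ins2Akita/+ against WT Gata1 spanned -1.75 to 0.0830, Klf1 -1.82 to 0.21, Epor -1.78 to 0.0937, Alas2 -1.05 to 0.76, Hba-a1 -1.06 to 0.51, Hba-a2 -0.91 to 0.69, Hbb-bt -1.01 to 0.40 and Hbb-bs -1.14 to 0.45. For the double mutant against Tet2+/- Gata1 spanned -2.62 to 0.16 and Tfrc -0.99 to 0.0587. For the double mutant against Ins2Akita/+ Gata1 spanned -1.24 to 0.65, Klf1 -1.59 to 0.18, Epor -1.31 to 0.54, Tfrc -0.37 to 0.28, Alas2 -1.32 to 0.54, Hba-a1 -1.08 to 0.49, Hba-a2 -0.93 to 0.69, Hbb-bt -0.82 to 0.57 and Hbb-bs -0.94 to 0.69. For the interaction Gata1 spanned -1.63 to 1.16, Klf1 -2.21 to 0.55, Epor -1.90 to 0.78, Tfrc -0.68 to 0.53 and Hbb-bs -1.60 to 0.0342. For the double mutant against WT the 4 highest of these values were without WT library 1, in Tet2+/- against WT all 4 lowest were without Tet2+/- library 3, in Ins2Akita/+ against WT all 8 lowest were without Ins2Akita/+ library 2, and in the double mutant against Ins2Akita/+ all 9 highest were without that library. The cause of these changes of sign was not tested. Standard errors were 0.48 to 1.18 on the log2 scale in the pairwise comparisons, and the lowest count of a member in a library was 120.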

Other observations

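Embryonic and minor globins were close to absent from these adult marrow libraries. Over all 11 libraries Hbb-y, the embryonic beta-like chain, had 9 counts in all, Hbb-bh1 had 4, Hbb-bh2 had 1, Hba-x, the embryonic alpha-like chain, had 15 and Hbq1a had 8. The highest count of any of these in 1 library was 6, for Hba-x in Tet2+/- library 3, which also held 5 of the counts of Hbb-y. Hbq1b, a theta-like globin, had 176 counts and was the single gene of this group to pass the filter on low counts. It had 0.551, 0.249 and 0.697 CPM in the double mutant libraries, 0.901, 1.07 and 1.74 CPM in Tet2+/-, 0.363 and 1.15 CPM in Ins2Akita/+ and 1.06, 0.398 and 1.03 CPM in WT. In the double mutant against WT it was at -0.73 ± 0.60 on the log2 scale (edgeR, adjusted p = 0.834).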
